A study of Mus musculus with 2 samples.

Results

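Liver plasma protein genes were followed in the stomach of B6NCrl mouse embryos, dissected at embryonic day 15.5. The list holds 39 genes, chosen by symbol as genes of proteins that hepatocytes release into the blood, with a few enzymes that hepatocytes keep. The choice of these genes and of the lists set beside them was made with earlier results of these data known. All 39 were present among the 43346 Ensembl genes of both gene tables. They fall into 8 apolipoproteins, 8 genes of coagulation and fibrinolysis, 10 protease inhibitors, 9 transport and binding proteins, the complement gene C3 and 3 hepatocyte enzymes. The series holds 1 group of 2 biological replicates, each a total RNA library from 10 ng of RNA of the size fraction above 200 nucleotides. Replicate 1 was a pool of 78 healthy embryos and replicate 2 a pool of 62, with males and females in each, and no treatment, transgene or mutation was named. The labels do not tie a library to single animals or litters. Because there is no second condition, the question here is how high these genes stood in the dissected stomachs and which of them stood at the same level in both pools.

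Hepatocytes secrete most of the proteins of blood plasma: lipid carriers, clotting factors and their inhibitors, and carriers of hormones, vitamins and metals. In the embryo the liver begins this production early, and it is then also the main site of red cell formation. Several of the same genes are also active elsewhere. Absorptive cells of the intestine make Apoa1, Apob, Apoc3 and the urea cycle enzyme Cps1, pancreatic islet cells make Ttr and Gc, and the yolk sac makes Afp. These are examples for some members only, and the part of such sources in the levels was not tested.

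The tables held 43209506 expected counts on genes in replicate 1 and 44257493 in replicate 2, and ERCC spike-in RNAs took 1.88% and 3.0% of all counts. Stomach genes were present in both pools, with the stomach mesenchyme regulator Barx1 at 141.97 and 166.36 TPM and the gastric trefoil gene Tff1 at 163.54 and 123.95 TPM (TPM is an abundance corrected for transcript length and scaled to a fixed library sum). The keratin gene Krt4 of stratified epithelium, which lines the forestomach in mice, was at 768.5 and 317.99 TPM and so stood lower in replicate 2, with a log2 ratio of -1.31 on the scale described next. Its part in the members' differences was not tested. Each library is 1 side of the comparison between pools, so no p-value is given. Ratios are log2 of replicate 2 over replicate 1, from expected counts rounded to whole numbers and scaled by TMM factors, so that they are relative to the bulk of genes. The 95% interval beside a ratio is an exact binomial one. Reads carry no molecular identifiers, and these intervals cover counting error only.

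Most plasma protein genes were well above the detection limit in both stomach pools, and most stood lower in replicate 2. In both libraries 35 of the 39 reached 1 TPM, against 35.9% of all genes. The median member was at 36.13 and 12.23 TPM, and the median over all genes was 0.14 and 0.11 TPM. Together the members took 0.338% of the gene counts in replicate 1 (146199 counts) and 0.193% in replicate 2 (85361 counts). In tissue RNA of this kind, fewer cells of a type and less RNA per cell cannot be told apart.

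**Figure D1:**
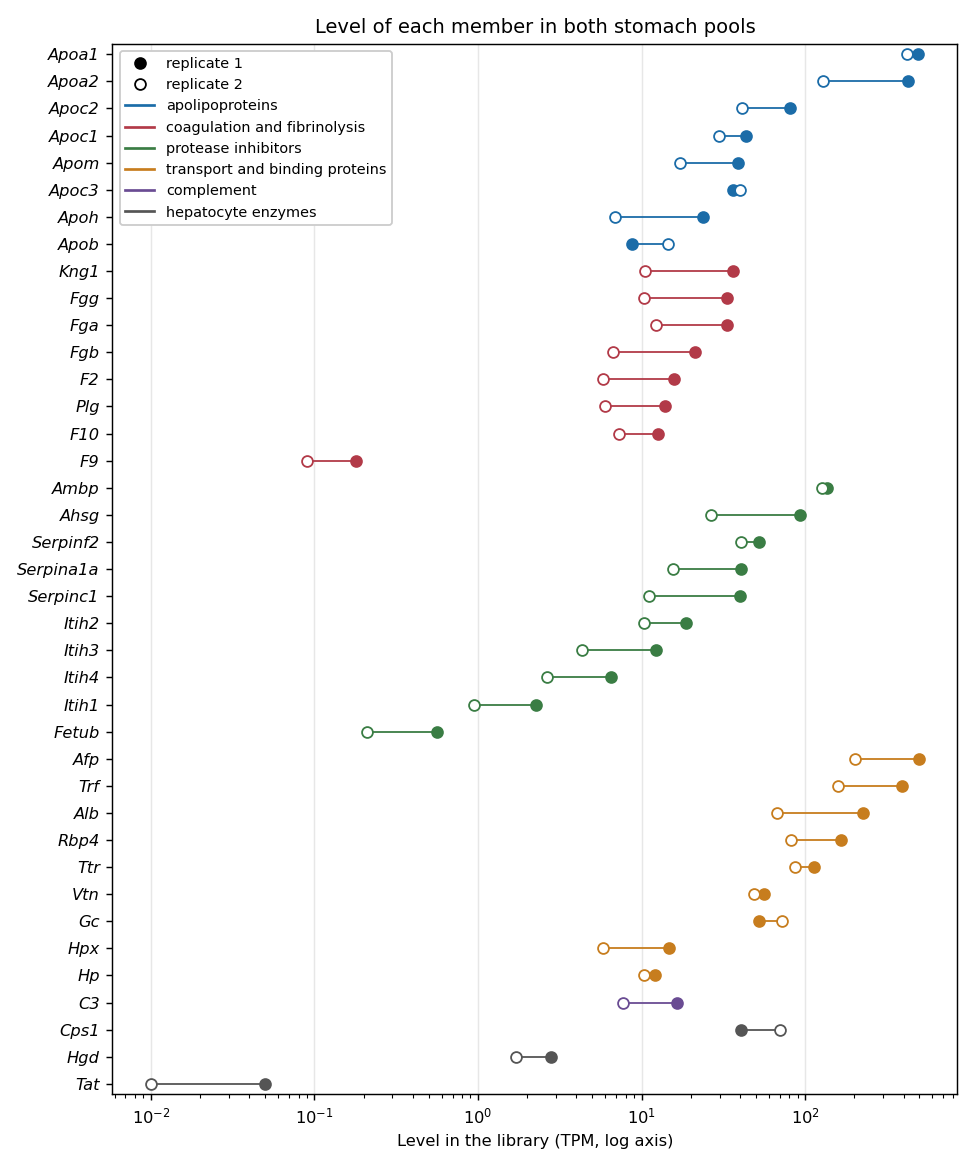
Level of each of the 39 genes in TPM (log axis) in replicate 1 (filled) and replicate 2 (open), joined by a line and coloured by functional group, with replicates as points and no error bars. Afp, Apoa1, Apoa2 and Trf were highest in replicate 1, the coagulation genes were all to the left in replicate 2, and Gc, Apob, Apoc3 and Cps1 were to the right.

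Of the 38 members with at least 20 counts over both libraries, 24 were lower in replicate 2 by 2-fold or more, 9 kept their level (a log2 ratio between -0.5 and 0.5) and 5 lay between these limits. No member was higher by 2-fold. In all 34 of the 38 were below 0, against 50.3% of all tested genes. Of all 19303 genes with as many counts, 6.24% were lower by 2-fold or more, 1.11% were higher and 84.2% kept their level by the same limit. The median log2 ratio was -1.20 over the members and -0.001 over all tested genes. Among genes with at least 200 counts, where counting error is smaller, 22 of 36 members and 2.52% of all genes were lower by 2-fold, and 9 members and 93.9% of all genes kept their level. The interval lay wholly below -1 for 18 of the 24. Spike-in RNAs give another scale, on which every log2 ratio is lower by 0.68. On it 30 members were lower by 2-fold, 3 kept their level (Apob, Gc and Cps1) and 37 were below 0, with Cps1 the exception. Of the 9 members kept on the TMM scale, Ttr (-1.10) and Serpinf2 (-1.05) were lower by 2-fold on the spike-in scale. Apoa1, Ambp, Hp, Vtn and Apoc3 lay between the limits on it, from -0.94 for Hp to -0.59 for Apoc3. Which members kept their level thus depended on the scale.

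**Figure D2:**
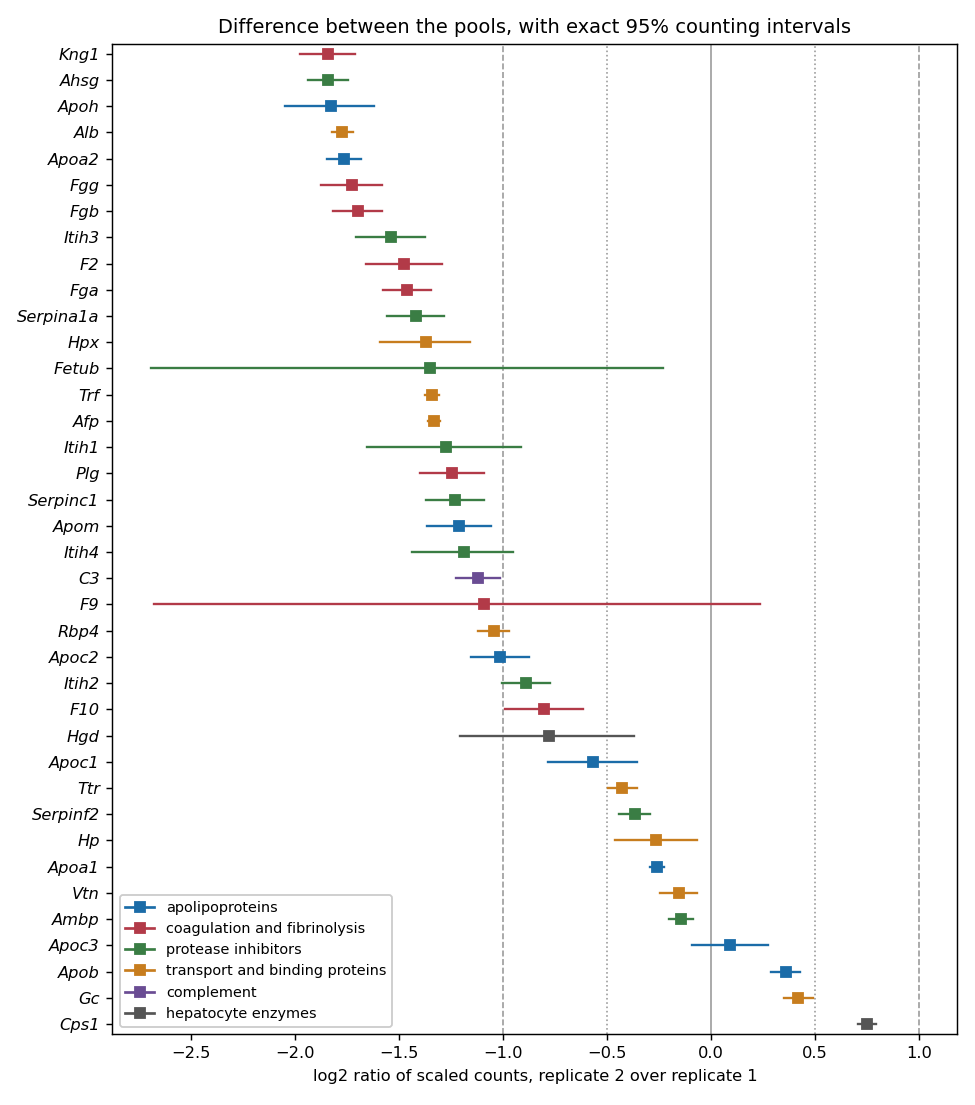
Log2 ratio of scaled counts, replicate 2 over replicate 1, for the 38 members with at least 20 counts, with exact 95% counting intervals and coloured by group. Dashed lines mark a 2-fold difference and dotted lines mark -0.5 and 0.5. Values run from -1.84 for Kng1 and Ahsg to 0.75 for Cps1.

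The carrier proteins included 4 of the 6 most abundant members of replicate 1, and their ratios ran from -1.77 to 0.42. Afp, the fetal relative of albumin, was at 497.36 and 202.86 TPM, from 30510 and 12499 counts, a log2 ratio of -1.33 (interval -1.36 to -1.30). Albumin itself (Alb) was at 225.27 and 67.65 TPM, 3.42-fold lower (log2 ratio -1.77, interval -1.82 to -1.72), and 3.11% of all tested genes had a ratio as low. Afp therefore stood above Alb in both pools, by 2.21-fold in replicate 1 and by 3.0-fold in replicate 2 (log2 ratio of the TPM 1.36 ± 0.31, SD, n = 2).

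The iron carrier transferrin (Trf) was at 390.21 and 159.51 TPM, with a log2 ratio of -1.34. The haem scavenger hemopexin (Hpx) was at 14.68 and 5.82 TPM (-1.37). The vitamin A carrier Rbp4, at 166.37 and 82.26 TPM, was just past the 2-fold limit (-1.04, interval -1.12 to -0.97). All 3 were thus lower in replicate 2.

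The other carriers kept their level on the TMM scale. Transthyretin (Ttr), which carries thyroid hormone and binds Rbp4, was at 112.82 and 86.18 TPM (-0.43, interval -0.50 to -0.36). Haptoglobin (Hp), which binds free haemoglobin, was at 12.03 and 10.29 TPM (-0.26), and vitronectin (Vtn), an adhesive protein of plasma and matrix, at 55.79 and 48.93 TPM (-0.16). The vitamin D binding protein gene Gc, an albumin relative, was at 52.62 and 72.29 TPM, with a log2 ratio of 0.42 (interval 0.35 to 0.49) that turns to -0.26 on the spike-in scale. In TPM, Gc and Alb thus changed order: Alb was higher in replicate 1 and Gc in replicate 2. In counts they did not, since Alb had 4078 and Gc 3840 in replicate 2.

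Promoter sequences are given as a description, among them those of the albumin family on chromosome 5, whose ratios differed. RefSeq windows of 300 bases (GRCm38.p6, the build of mm10; 250 bases before and 50 after the annotated start) matched 31 of the 39 members, with 34 windows. An exact match to the C/EBP motif TTGCNNAA, on either strand, was found in 15 of the 34 (44.1%) and in 10.8% of all 32851 windows. C/EBP proteins are leucine zipper regulators of many liver and fat cell genes. Of the 24 windows of members lower by 2-fold 12 had a match, of the 6 windows of members that kept their level 1 did, that of Apob, and of the 3 windows of members between the limits 2 did. Ttr, Hp and Apoc3, which also kept their level, had no window, so the kept side rests on few windows. The sequences below show the albumin family, the 3 fibrinogen genes, Apob and Apoa1, with the matched bases in capitals. Those of Fgg, which was lower, and of Gc and Apoa1, which kept their level, had no match and are all in lower case.
Alb, chr5:90460620-90460919, plus strand: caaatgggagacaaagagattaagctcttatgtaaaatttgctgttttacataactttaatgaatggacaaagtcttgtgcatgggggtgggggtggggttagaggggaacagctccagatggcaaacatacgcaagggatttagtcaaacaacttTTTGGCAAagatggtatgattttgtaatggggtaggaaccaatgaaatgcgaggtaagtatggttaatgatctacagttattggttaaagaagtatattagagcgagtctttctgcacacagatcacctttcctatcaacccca
Afp, chr5:90490464-90490763, plus strand: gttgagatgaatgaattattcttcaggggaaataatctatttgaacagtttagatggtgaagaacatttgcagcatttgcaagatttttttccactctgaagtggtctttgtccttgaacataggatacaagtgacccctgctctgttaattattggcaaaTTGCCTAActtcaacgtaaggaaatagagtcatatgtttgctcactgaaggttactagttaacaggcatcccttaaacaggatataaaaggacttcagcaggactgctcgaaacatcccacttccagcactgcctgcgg
Gc, chr5:89457849-89458148, minus strand: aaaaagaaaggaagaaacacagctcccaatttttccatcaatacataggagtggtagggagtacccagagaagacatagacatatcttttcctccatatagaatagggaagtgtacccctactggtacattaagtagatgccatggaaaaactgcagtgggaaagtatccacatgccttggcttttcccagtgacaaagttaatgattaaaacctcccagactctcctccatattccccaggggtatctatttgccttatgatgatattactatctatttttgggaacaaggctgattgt
Fgg, chr3:83007474-83007773, plus strand: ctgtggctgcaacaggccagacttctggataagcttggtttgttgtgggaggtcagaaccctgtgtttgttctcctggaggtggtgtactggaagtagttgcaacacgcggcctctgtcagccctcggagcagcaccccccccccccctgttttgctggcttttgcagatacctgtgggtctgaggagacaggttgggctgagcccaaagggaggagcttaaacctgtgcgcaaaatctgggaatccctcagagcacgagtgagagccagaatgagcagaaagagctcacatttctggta
Fga, chr3:83025903-83026202, plus strand: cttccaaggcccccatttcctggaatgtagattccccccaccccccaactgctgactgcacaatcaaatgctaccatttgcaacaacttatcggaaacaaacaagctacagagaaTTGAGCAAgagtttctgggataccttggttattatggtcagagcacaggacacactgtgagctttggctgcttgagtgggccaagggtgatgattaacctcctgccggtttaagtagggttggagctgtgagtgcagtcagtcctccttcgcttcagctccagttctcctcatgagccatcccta
Fgb, chr3:83049814-83050113, minus strand: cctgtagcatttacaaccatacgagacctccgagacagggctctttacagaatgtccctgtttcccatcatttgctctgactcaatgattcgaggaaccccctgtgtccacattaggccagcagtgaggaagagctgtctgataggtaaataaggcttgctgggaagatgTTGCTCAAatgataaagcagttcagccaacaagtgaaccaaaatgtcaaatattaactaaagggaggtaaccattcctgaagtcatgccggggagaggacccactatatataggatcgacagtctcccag
Apob, chr12:7977427-7977726, plus strand: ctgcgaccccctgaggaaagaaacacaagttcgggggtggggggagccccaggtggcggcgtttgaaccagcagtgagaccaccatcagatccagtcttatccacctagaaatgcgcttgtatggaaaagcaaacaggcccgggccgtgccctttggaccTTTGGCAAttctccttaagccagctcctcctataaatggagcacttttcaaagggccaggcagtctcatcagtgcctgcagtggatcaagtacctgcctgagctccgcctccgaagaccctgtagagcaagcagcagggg
Apoa1, chr9:46228380-46228679, plus strand: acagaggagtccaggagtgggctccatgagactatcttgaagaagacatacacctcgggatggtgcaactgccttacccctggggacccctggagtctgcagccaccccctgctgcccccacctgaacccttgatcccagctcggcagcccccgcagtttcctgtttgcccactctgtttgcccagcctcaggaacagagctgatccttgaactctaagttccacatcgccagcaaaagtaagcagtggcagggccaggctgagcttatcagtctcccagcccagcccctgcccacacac

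The matched bases lay at positions -94 to -87 from the RefSeq start in Alb, at -89 to -82 in Afp, at -80 to -73 in Fgb, at -90 to -83 in Apob and at -135 to -128 in Fga. The other motifs searched were HNF4 (CAAAGTCCA, at most 1 mismatch) and the TATA box (TATAAA, exact), on both strands. They were found in 20.6% and 29.4% of the members' windows, against 8.47% and 13.6% of all windows. HNF4 was in 6 of the 24 windows of members lower by 2-fold, 1 of the 3 between the limits and 0 of the 6 kept. The TATA box was in 7, 1 and 2 of these windows. In the upstream window of Apoa2 a C/EBP match overlapped the HNF4 match. These matches describe letters only, and their part in the ratios was not tested. The regulator genes Hnf4a, at 27.48 and 35.46 TPM, and Cebpa, at 5.01 and 5.28 TPM, had log2 ratios of 0.29 and 0.04 that fall below 0 on the spike-in scale.

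Apolipoproteins, the protein part of blood lipid particles, divided into genes that stood lower and genes that did not, with a median of -0.79 over 8 members. Apoa1 and Apoa2, the main proteins of high-density lipoprotein, were nearly equal in replicate 1 at 489.42 and 428.63 TPM. In replicate 2 they were at 419.28 and 128.07 TPM. Apoa1 kept its level (log2 ratio -0.26, interval -0.30 to -0.23) while Apoa2 was 3.40-fold lower (-1.77, interval -1.85 to -1.68). The TPM ratio of Apoa2 to Apoa1 accordingly went from 0.876 to 0.305.

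Apoh, a phospholipid-binding plasma protein, had one of the lowest ratios, at 23.91 and 6.86 TPM (-1.83, interval -2.05 to -1.62). Apom, a carrier of sphingosine 1-phosphate, was at 38.98 and 17.29 TPM (-1.21), and Apoc2, the activator of lipoprotein lipase, at 81.01 and 41.21 TPM (-1.01, interval -1.15 to -0.88). Apoc1 was at 43.29 and 29.82 TPM (-0.57), short of the limit. These genes were lower in replicate 2 to different degrees.

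Apoc3, an inhibitor of lipoprotein lipase, was at 36.36 and 40.07 TPM, and its ratio of 0.09 had an interval that included 0 (-0.09 to 0.27). Apob, the large structural protein of chylomicrons and low-density lipoprotein, was at 8.78 and 14.51 TPM, with a count ratio of 0.36 (interval 0.29 to 0.43). On the spike-in scale these values become -0.59 and -0.32. On the TMM scale neither was lower in replicate 2.

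Among the member groups, the 8 chosen genes of coagulation and fibrinolysis moved most evenly. All 8 were below 0, 7 of 8 were lower by 2-fold or more and none kept its level, with a median of -1.47. The 7 include F9, whose few counts gave an interval that reached 0.24. The evenness holds for these 8 only. Of 10 other coagulation genes with at least 20 counts, 4 were lower by 2-fold and 3 kept their level. The plasmin inhibitor Serpinf2 (-0.37), which kept its level on the TMM scale, is grouped with the protease inhibitors. Fibrinogen, the precursor of fibrin, is built from the products of Fga, Fgb and Fgg. Fga was at 33.26 and 12.23 TPM (-1.46, interval -1.58 to -1.34), Fgb at 21.25 and 6.73 TPM (-1.70, interval -1.82 to -1.58) and Fgg at 33.26 and 10.34 TPM (-1.73, interval -1.87 to -1.58). Within a pool the log2 TPM ratio to Fga was -0.75 ± 0.15 for Fgb and -0.12 ± 0.17 for Fgg (SD, n = 2). Fgb was thus below Fga by more than the spread between the pools, and Fgg was not.

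Kininogen (Kng1), the source of bradykinin, had one of the lowest ratios, beside Ahsg and Apoh, with overlapping intervals, at 36.13 and 10.55 TPM (-1.84, interval -1.98 to -1.71). Prothrombin (F2) was at 15.90 and 5.85 TPM (-1.47) and plasminogen (Plg), which dissolves fibrin, at 13.83 and 5.99 TPM (-1.25). The levels of F2 and Plg were close in each pool, with a log2 TPM ratio of 0.08 ± 0.17. Each of these genes stood lower in replicate 2 with an interval below -1.

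Coagulation factor X (F10) was at 12.54 and 7.28 TPM (-0.80, interval -0.99 to -0.62), the only gene of this group within the 2-fold limit. Factor IX (F9), an X-linked gene, was near the limit of detection, at 0.18 and 0.09 TPM from 15 and 7 counts. Its ratio of -1.09 had an interval of -2.68 to 0.24, so a difference was not detectable at this depth.

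Protease inhibitors were all below 0, with a median of -1.25 over 10 members, 7 of them lower by 2-fold. Ahsg, fetuin A, which keeps calcium phosphate in solution, was at 92.89 and 26.57 TPM (-1.84, interval -1.94 to -1.75). Serpina1a, one of the near-identical alpha-1-antitrypsin genes, was at 40.30 and 15.47 TPM (-1.42), and antithrombin (Serpinc1) at 40.19 and 11.10 TPM (-1.23). The last fold depended on the unit, since the TPM ratio of Serpinc1 was -1.85, outside the counting interval of -1.37 to -1.09. Fetub, a neighbour and relative of Ahsg, had 23 and 9 counts, or 0.56 and 0.21 TPM (-1.35, interval -2.69 to -0.23).

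The heavy chain family of the inter-alpha-trypsin inhibitors, some of which stabilise hyaluronan matrix, was at lower levels. Itih3 was at 12.28 and 4.33 TPM (-1.54), Itih4 at 6.49 and 2.66 TPM (-1.19) and Itih1 at 2.25 and 0.95 TPM (-1.27). Itih2 was at 18.75 and 10.38 TPM and just short of the limit (-0.89, interval -1.01 to -0.78). All 4 genes of this family were lower in replicate 2.

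The light chain gene of the inter-alpha-trypsin inhibitors did not follow. Ambp, which encodes bikunin and the lipocalin alpha-1-microglobulin in 1 precursor, was at 136.99 and 126.85 TPM, from 4934 and 4598 counts (-0.15, interval -0.20 to -0.09). Serpinf2, the inhibitor of plasmin, was at 52.39 and 40.72 TPM (-0.37, interval -0.44 to -0.29). These were the 2 inhibitors that kept their level on the TMM scale.

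C3, the central protein of complement, was at 16.57 and 7.74 TPM (-1.12, interval -1.23 to -1.02). Of the enzymes, Cps1, the first step of the urea cycle, was the member with the highest ratio, at 40.52 and 69.98 TPM from 6826 and 11840 counts (0.75, interval 0.71 to 0.79), and 0.07 on the spike-in scale. Hgd, an enzyme of tyrosine breakdown, was at 2.78 and 1.7 TPM (-0.78, interval -1.21 to -0.37). Tat, which starts that pathway and is known to come on around birth, had 1 count in each library and was not tested. Its listed levels of 0.05 and 0.01 TPM go with gene lengths of 758 and 2375 bases in the gene tables.

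By median, the members that kept their level stood above those lower by 2-fold in replicate 1. Their median was 52.62 and 48.93 TPM, against 33.26 and 10.45 TPM for the 24 members lower by 2-fold. Single kept members were weaker, with Apob at 8.78 and Hp at 12.03 TPM in replicate 1. As a group the 9 summed to 957 and 859 TPM, and the 24 to 2232 and 832 TPM. In counts, which also grow with transcript length, the 9 had 34966 and 32954 and the 24 had 101467 and 38843. In replicate 2 the sums of both sets were thus close, and which was larger depended on the unit. The calls were made on the ratio between the pools, so the drop of the 24 in replicate 2 follows from them. Members close to the limits were Apoc2 and Rbp4, just past 2-fold, Itih2, just short of it, Ttr and Gc, just within the range of kept levels, and Apoc1, just beyond it.

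Neighbouring members (mm10, GENCODE M21) had like ratios in some clusters and not in others. As 24 of the 38 tested members were lower by 2-fold, lower neighbours would often occur, and position was not tested. Fgg, Fga and Fgb lie side by side on chromosome 3 (83007724 to 83049863) and all were lower by 2-fold. So were Ahsg, Fetub and Kng1 on chromosome 16 (22891277 to 23082078) and Itih4, Itih3 and Itih1 on chromosome 14 (30886476 to 30943289). The intervals of Fetub, Itih4 and Itih1 reached above -1, to -0.23, -0.95 and -0.91. Apoa1 and Apoc3, neighbours on chromosome 9 (46228580 to 46235636), both kept their level, as did the adjoining Apoa4 (-0.13), which is no member. On chromosome 5, Alb (90460897 to 90476602) and Afp (90490737 to 90508907) were lower while Gc (89417522 to 89457898) was not. Apoc2 (19671579 to 19677941) and Apoc1 (19689481 to 19692660) on chromosome 7 had ratios of -1.01 and -0.57, and of the genes beside them Apoc4 had -1.60 and Apoe -0.53.

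Transcript shares were compared for 34 members, those reaching 100 counts in both pools. The leading transcript was the same in both libraries for 32 of them (94.1%, against 93.9% of 14068 genes with as many counts). It held at least 90% of the gene's TPM in both for 20 (58.8%, against 44.4%). In 7 members (20.6%, against 16.0%) a transcript moved by 10 percentage points or more. For Apob the full-length transcript (13934 bases) held 76.92% and 59.68% of the gene's TPM, and a transcript of 1118 bases held the rest. The long one had 2883.29 and 3715.17 counts (6.75 and 8.66 TPM) and the short one 63.71 and 184.83 counts (2.03 and 5.85 TPM). The TPM ratio of Apob, 0.72, was accordingly above its count ratio of 0.36.

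Serpinc1 also differed by transcript. Its 4970-base transcript had 465.09 and 397.16 counts and held 7.70% and 23.69% of the TPM. Its 1044-base transcript had 566.89 and 119.86 counts, and a 742-base transcript annotated as subject to nonsense-mediated decay had 331.98 and 85.06. For Serpinf2, whose sum kept its level, a 2179-base transcript held 1.33% and 17.80%. The division of reads among overlapping transcripts is an estimate, and these shares have no replicate error of their own.

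**Figure D3:**
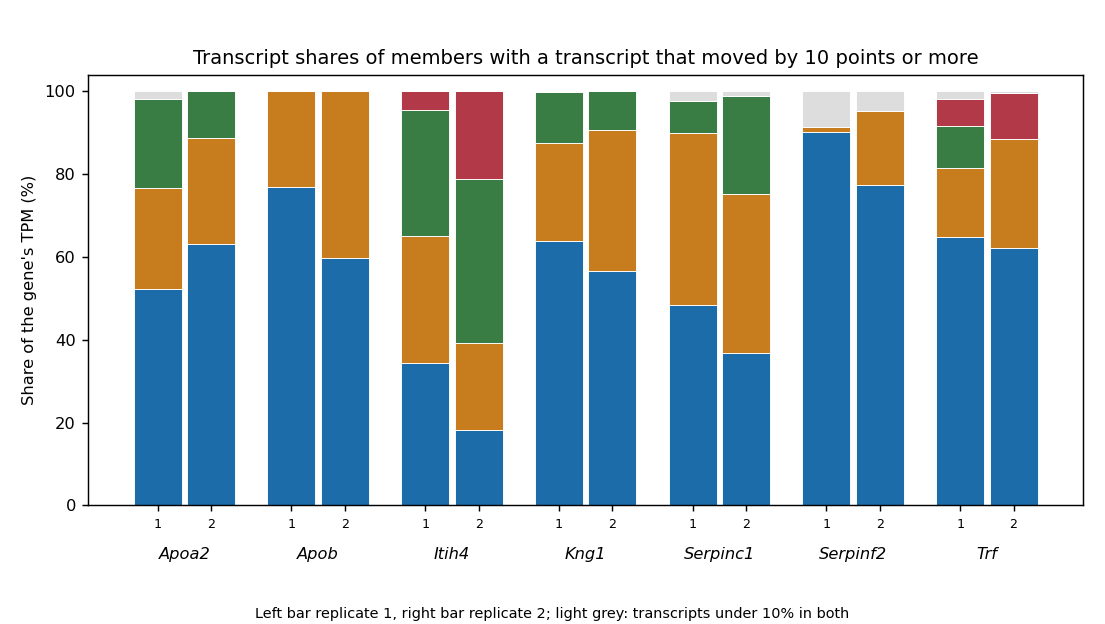
Share of each gene's TPM (percent) on its transcripts in replicate 1 (left bar) and replicate 2 (right bar) for the 7 members with a move of 10 points or more. The same colour in a pair is the same transcript, and light grey sums transcripts under 10% in both. For Apob the lowest block is 76.92% on the left and 59.68% on the right.

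Other secreted liver proteins also stood lower in replicate 2, with a smaller median difference, and no test of that difference was made. Of 74 further genes for plasma proteins found in the tables, 57 had at least 20 counts. Of these 22 were lower by 2-fold, 20 kept their level, 15 lay between and none was higher, with a median of -0.77. Serpina6, which carries glucocorticoids, was at 245.94 and 247.68 TPM (-0.03), Igf1, the insulin-like growth factor also made by mesenchyme, at 97.25 and 98.46 TPM (0.11), and Apoe, made by macrophages too, at 420.32 and 295.64 TPM (-0.53). In complement 5 of 15 were lower, in coagulation 4 of 10, among serpins 3 of 9, among apolipoproteins and lipid enzymes 4 of 7 and among transport and acute-phase proteins 6 of 16. Among acute-phase genes, Crp had 217 and 89 counts, while Orm1 had 3 and 0 and Saa1 5 and 3.

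**Figure D4:**
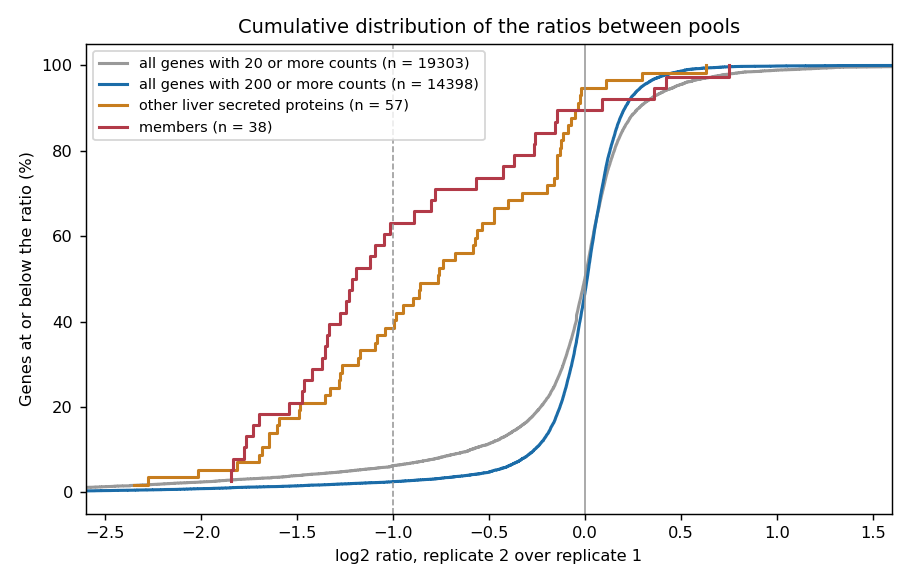
Percent of genes (vertical axis) at or below a given log2 ratio of replicate 2 over replicate 1 (horizontal axis) for all genes with at least 20 counts, all with at least 200, the 57 other secreted liver proteins and the 38 members. The members' line crosses its middle at -1.20 and the secreted proteins' line at -0.77, while both lines of all genes cross near 0.

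Hepatocyte genes that are not secreted were mixed. Of 19 other enzymes with at least 20 counts 7 were lower by 2-fold and 9 kept their level (median -0.52), with Arg1, the last enzyme of the urea cycle, at 37.99 and 15.97 TPM (-1.29) and Ass1, also used outside the liver, at 124.62 and 147.19 TPM (0.19). Of 20 regulators and cell-bound genes 3 were lower and 15 kept their level (median 0.09). The 3 were the bile salt pump Abcb11 (97 and 28 counts, -1.82), the asialoglycoprotein receptor Asgr1 (25 and 8 counts, -1.63) and the transferrin receptor Tfr2 (258 and 109 counts, -1.28). Other surface genes of hepatocytes did not pass: Asgr2, the partner of Asgr1, had 24 and 18 counts (-0.45) and the bile salt importer Slc10a1 had 42 and 25 (-0.78). The receptors and transporters just named were all below 0, with the interval of Asgr2 including 0, so the list median of 0.09 does not describe them. The most abundant genes of this list, Gpc3 (-0.09), Dlk1 (-0.03) and Cdh1 (0.17), kept their level. The data do not show which cells their RNA came from. Regulators such as Hnf4a and Foxa2 are also active in gut and pancreas. Sources outside the liver are named here for some genes only, and their part in any ratio was not tested.

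Erythroid markers moved with the members. Most genes of the other tissue lists kept their level, as did 84.2% of all tested genes. None was higher by 2-fold, and only 1.11% of all tested genes were, so short lists would often hold none. Of the erythroid genes 14 of 14 were below 0, against 50.3% of all tested genes. Lower by 2-fold were 8 of 14, against 6.24% of all tested genes. Their median was -1.09 and their summed level 41166.41 and 23062.82 TPM, most of it globin. Of the 16 intestinal absorptive genes 13 kept their level, 12 were above 0 and 1 was lower by 2-fold (Sis, at 32 and 8 counts). Their median was 0.17 and their sum 1240.86 and 1486.03 TPM. The most abundant genes of this list were Fabp1 (0.19), Lgals4 (0.41) and Prap1 (-0.01). Lipid assembly protein Mttp, the partner of Apob, had the highest ratio of the list, at 29.63 and 48.21 TPM (0.65). Endocrine pancreas genes had a median of 0.18 over 11, of which 7 kept their level, and a sum of 701.5 and 844.42 TPM. Glucagon (Gcg), at 75.53 and 133.30 TPM, had the highest ratio of that list (0.79). All 10 exocrine pancreas genes were above 0 (median 0.46) and 7 of them kept their level. Their sum was 7329.19 and 10026.05 TPM. Of 8 yolk sac endoderm genes 7 kept their level (median 0.11). These positive medians become negative on the spike-in scale. Matrix genes (median 0.01) and housekeeping genes (median 0.06) kept their level in 8 of 8 each. The part of these tissues in the level of any member was not tested.

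**Figure D5:**
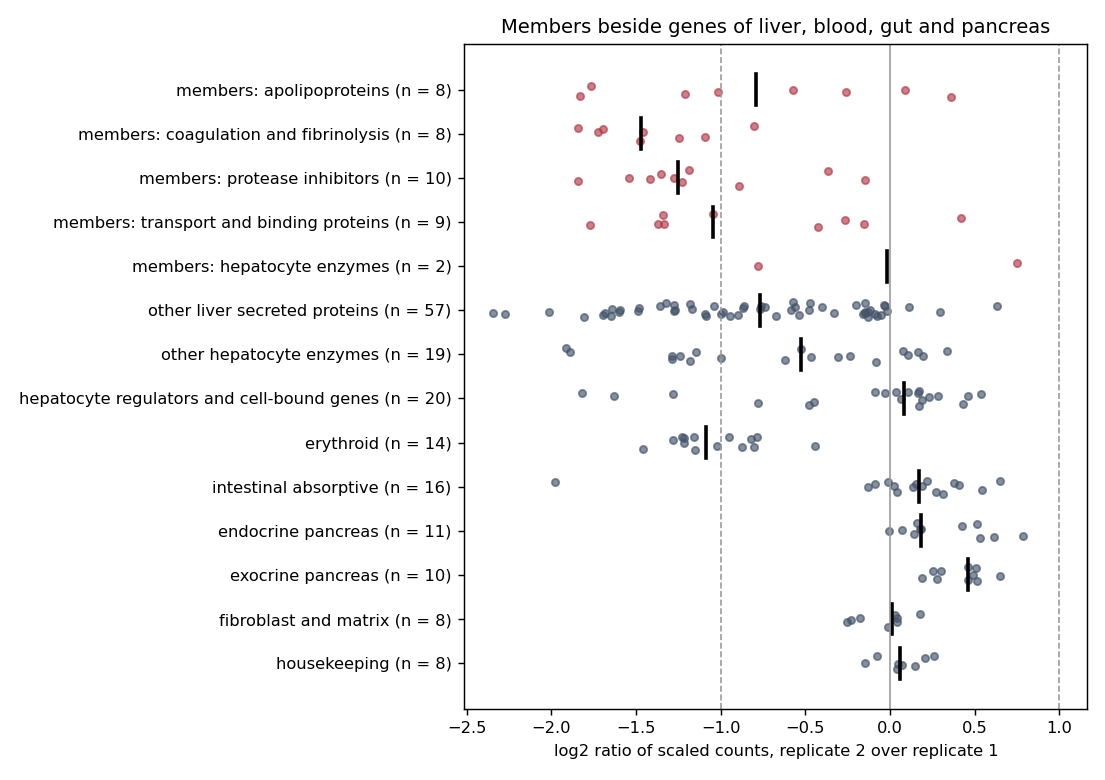
Log2 ratio of replicate 2 over replicate 1 for single genes (points) of the member groups (red) and of other lists (slate), with list medians as black bars and n as the genes with at least 20 counts. C3 is not drawn. The coagulation members lie at -0.80 or further left, all 14 erythroid genes lie left of 0, and the exocrine pancreas genes lie right of 0.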

How the data were processed

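Total RNA of 2 pools of embryonic stomachs was sequenced, and the authors deposited a gene and a transcript table for each, made from transcriptome alignments (build mm10, annotation M4), as the deposited text file says. The quantification program, its version and the strand setting are not given in the sources used here, so a gene and its antisense neighbour may share reads. The deposited tables give, in columns named in their headers, expected counts, with shared reads divided among features, and the authors' TPM and FPKM, scaled by effective length and library. The deposited transcript shares are in percent of a gene's TPM. The labels call the pools biological replicates.

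Symbols came from GENCODE M21 by gene identifier without version (42462 of 43346 matched). The members and lists were chosen with earlier results of these data known. Expected counts were rounded. Ratios used TMM sizes (edgeR 4.0.16, R 4.3.3), a prior count of 0.5 and genes with a sum of at least 20, and were tested on simulated data. The design foresaw no test. Every member is named with its level in both libraries, with full values at 10 TPM or above in either library or at a kept level. Of each other list, at most the 3 genes of highest mean TPM and those past 2-fold are named. Hnf4a, Cebpa, Foxa2, Mttp, Orm1, Saa1, C8g, Serpina1c, Serpina1e, Asgr2 and Slc10a1 fall outside this rule and were chosen after their values were seen. Alternatives used DESeq2 1.42.0 sizes, library totals, spike-ins, TPM, posterior means, transcript sums and other limits. The limit of 200 counts was added after seeing the data. Sequences are from RefSeq, GRCm38.p6. A further planned motif is not reported here.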

Additional observations from a re-analysis of the deposited data

How the results depend on the processing

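DESeq2 size factors, library totals, posterior mean counts, summed transcripts and a prior count of 5 left all 38 member ratios inside their counting intervals, and the TPM ratio did so for 33. Leaving out replicate 1 or 2 gave 35 or 36 members at 1 TPM. Spike-in sizes lowered the median ratio to -1.88 over all members, -1.47 for apolipoproteins, -2.15 for coagulation, -1.93 for inhibitors, -1.72 for transport proteins, -1.80 for C3 and -0.69 for enzymes, and left 3 members at their level, all by the construction of that scale. A limit of 3-fold left 7 members lower, and a limit of 0.25 left 3 at their level. From CPM, which has no length correction, the log2 ratios inside a library were 0.047 for Fgb to Fga, -0.53 for Fgg to Fga, -2.19 for Apoa2 to Apoa1, -4.70 for Apoc3 to Apoa1, -1.31 for Apoc1 to Apoc2 and -0.40 for F2 to Plg. Posterior means gave -6.80 for Fetub to Ahsg, and the cause was not tested. No ratio can be had without either replicate. No paired analysis was possible because there is only 1 group. F9, Fetub and Tat are limited by depth, and 6 members with divided reads (Apoc2, Kng1, Fgg, Trf, Serpina1a and Serpinc1) are less certain.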

Other observations

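The alpha-1-antitrypsin genes, near-identical copies on chromosome 12 that can share reads, had unequal ratios. Serpina1b was at 57.58 and 26.16 TPM (log2 ratio -1.17), Serpina1d at 17.09 and 6.86 TPM (-1.36) and Serpina1e at 16.90 and 9.64 TPM (-0.86), while Serpina1c was at 21.92 and 20.32 TPM (-0.15). Each copy is uncertain singly.

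Among low complement genes, C8a had 44 and 9 counts (-2.27) and C8b 127 and 37 counts (-1.81), while the third C8 chain C8g had 175 and 170 counts (-0.09). Kng2, the copy of Kng1, had 76 and 15 counts (-2.35).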
